A study of Mus musculus with 7 samples.

Results

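The genes described here carry signals that act on the tone of blood vessels: the endothelin ligands Edn1 and Edn3, their processing enzyme Ece1, the endothelin receptors Ednra and Ednrb, the angiotensin receptor Agtr1a, the adenosine receptor Adora2a, the leukotriene receptor Cysltr2, the membrane estrogen receptor Gper1, and the nitric oxide synthase Nos3. They are 10 of the 32531 gene symbols in each count file, and all 10 passed the filter on low counts. They were chosen by symbol for these signalling families, with their levels in the purified and unpurified RNA already known, so their own differences between the groups are given as a description, without a test.

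The 7 RNA-seq libraries come from midbrain tissue of adult, untreated control mice, all of which carry the transgene of the animal line Stard8-TRAP ES2342. The transgene makes the ribosomal protein Rpl10a fused to EGFP, named in the labels for Stard8, and tagged polysomes were captured from the homogenate on beads with antibodies to EGFP. The captured RNA gave 3 libraries (IP 1, 2 and 4) and the RNA not bound to the beads gave 4 (unbound 1 to 4), while IP number 3 was not analysed here. The labels give neither sex, strain background, age in weeks nor animals per library, so p-values measure only the spread between these libraries, which may be technical.

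Small arteries and capillaries are lined by endothelial cells and wrapped by mural cells, that is smooth muscle cells and pericytes. Endothelins are peptides cut from precursors by an endothelin converting enzyme, and the type A receptor on mural cells constricts vessels, while the type B receptor on endothelial cells and astrocytes has dilating and clearing roles. Nitric oxide made in the endothelium diffuses to mural cells and relaxes them through cyclic GMP, angiotensin constricts through its type 1 receptor, and adenosine relaxes through A2 receptors.

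Counts in genes ranged from 52052340 to 76114634 per library. Levels are given in CPM, that is counts scaled to library depth by TMM, on which 3 counts stand for 0.0376 to 0.059 CPM. Stard8 itself had 11570 to 29121 counts in the IP libraries and 220 to 280 in the unbound ones, while Rpl10a, which the transgene also encodes, had 282 to 358 and 40.5 to 326 CPM. The series title speaks of neurons, but all 10 neuron markers fell in IP (6 of 10 without IP 2). Their summed level was 3500 to 7910 CPM in IP and 13500 to 21400 in unbound. All 13 endothelial markers rose in IP, with sums of 1540 to 2020 CPM in IP and 22.3 to 27.5 in unbound. All 13 markers of mural cells rose too, with sums of 3490 to 4910 against 29.8 to 46.1 CPM, as did all 11 markers of macrophages and microglia, with sums of 1070 to 1100 against 41.4 to 70.0 CPM. Of the 10 astrocyte markers 6 rose (3 among the libraries with index sequence ACAGTG, 10 among those with GTGAAA), with sums of 2270 to 3020 against 1100 to 1820 CPM, and all 9 oligodendrocyte markers fell. Of the other marker lists, 1 of 6 dopamine neuron genes fell, 5 of 7 fibroblast and 2 of 5 ependymal and choroid plexus genes rose, and all 3 red cell genes fell. In some unbound library Tie1, Higd1b and Pf4 were at 0, and no marker was at 0 in an IP library. What part this mixture of cells has in the values below was not tested, and in such bulk RNA fewer cells of a type cannot be told apart from less RNA per cell. No sequencing lane number is shared by the groups, so lane and group cannot be told apart.

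The promoters of Gper1, Cysltr2, Ednra and Edn1 are shown because each of these genes, alone among those with a promoter window, was at or under 0.163 CPM in at least 1 unbound library. Each run is the 250 bases before the transcription start, from RefSeq on GRCm38.p6, which held windows for 7 of the 10 genes. The windows are chr5:139422929-139423178 on the plus strand, chr14:73049115-73049364 on the minus strand, chr8:77724453-77724702 on the minus strand and chr13:42301226-42301475 on the plus strand, in that order. Capitals mark a match on either strand to one of the motifs searched. These were AGATAA for GATA factors, CAGGAAG for the ETS family, TGTTTAC for forkhead proteins, TGANTCA for AP-1, and the CArG box of serum response factor.
Gper1: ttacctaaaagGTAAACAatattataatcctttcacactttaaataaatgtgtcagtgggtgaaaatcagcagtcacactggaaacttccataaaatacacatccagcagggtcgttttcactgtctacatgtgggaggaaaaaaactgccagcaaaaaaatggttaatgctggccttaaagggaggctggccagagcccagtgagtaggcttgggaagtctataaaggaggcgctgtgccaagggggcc
Cysltr2: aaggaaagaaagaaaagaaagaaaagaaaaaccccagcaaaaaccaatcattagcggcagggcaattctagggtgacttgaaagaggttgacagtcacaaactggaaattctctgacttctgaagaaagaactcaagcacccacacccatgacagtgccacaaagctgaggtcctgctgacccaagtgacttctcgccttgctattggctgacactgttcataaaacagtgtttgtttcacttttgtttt
Ednra: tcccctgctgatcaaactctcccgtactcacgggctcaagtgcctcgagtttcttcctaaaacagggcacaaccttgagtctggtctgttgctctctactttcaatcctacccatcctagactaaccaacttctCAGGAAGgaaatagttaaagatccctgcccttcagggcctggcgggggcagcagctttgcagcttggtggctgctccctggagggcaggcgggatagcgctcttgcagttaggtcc
Edn1: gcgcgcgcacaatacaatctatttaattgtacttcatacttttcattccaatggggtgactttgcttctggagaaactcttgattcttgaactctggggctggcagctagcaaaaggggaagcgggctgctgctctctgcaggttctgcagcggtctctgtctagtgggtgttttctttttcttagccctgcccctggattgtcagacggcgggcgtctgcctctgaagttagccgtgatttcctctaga

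The Gper1 window held 1 forkhead match, which begins 239 bases before the start and which 3.17% of 32851 such windows hold. The Ednra window held 1 ETS match, beginning 116 bases before the start, against 10.8% of windows. In the Cysltr2 and Edn1 windows none of the 5 motifs was found, where GATA letters occur in 9.99% of all windows, AP-1 letters in 6.75% and the CArG box in 1.47%. A match describes the letters only. Base composition differed as well, with 42.8% G and C before Cysltr2, 44.0% before Gper1, 50.4% before Edn1 and 54.8% before Ednra.

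Of the 10 genes, 9 were higher in every IP library than in every unbound library and Agtr1a overlapped, as the plot of levels by library shows. Of the 17654 genes tested, 25.1% lay above every unbound library in this way, and 20.5% passed the threshold of the test as higher in IP and 18.9% as lower. Because the genes were chosen with this contrast in view, nothing is read from that count or from the median that follows. Their median log2 fold change was 3.97, beside -0.10 for all genes tested, and it spanned 0.44 for Agtr1a to 9.27 for Cysltr2. The libraries carry one of 2 index sequences, ACAGTG (IP 1, IP 2, unbound 1 and unbound 2) or GTGAAA (IP 4, unbound 3 and unbound 4), and each gene's log2 fold change had the same sign within both. Within ACAGTG and GTGAAA it was 2.13 and 2.16 for Ece1, 1.48 and 1.6 for Ednrb, 2.62 and 2.92 for Nos3, 4.39 and 3.87 for Edn3, and 0.39 and 0.62 for Agtr1a, and the other genes moved more, as given with each.

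**Figure D1:**
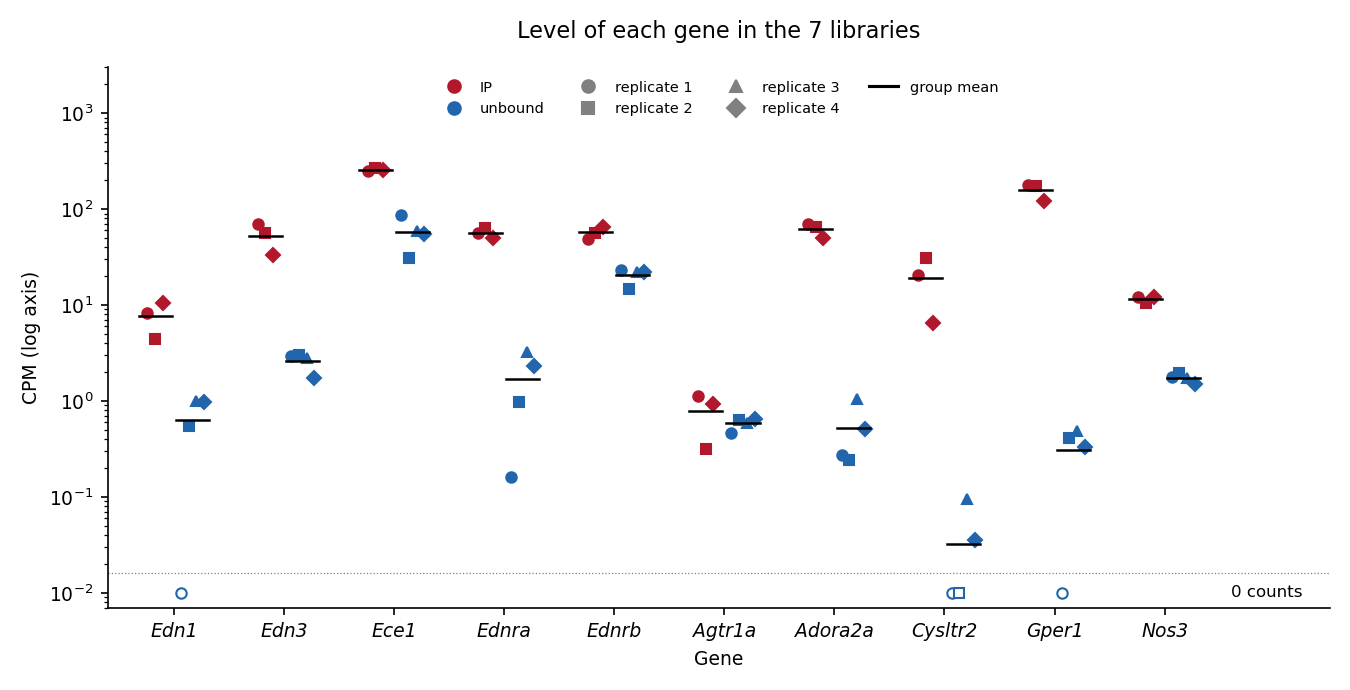
Level of each gene in CPM (log axis) in the 3 IP and the 4 unbound libraries, with the group mean as a line, a symbol shape for each replicate number and open symbols for 0 counts. In 9 genes every IP symbol lies above every unbound symbol, and Agtr1a overlaps.

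Among the ligands, Edn3 had the higher level per kilobase of exon in IP, 12.9 ± 4.50 CPM against 3.62 ± 1.42 for Edn1 (SD, n = 3). Edn3 (chromosome 2, 174760619 to 174784042, GRCm38, plus strand), which encodes the precursor of endothelin 3, a ligand that favours the type B receptor, had 69.4, 56.4 and 32.9 CPM in IP 1, 2 and 4 and 2.97, 3.04, 2.83 and 1.73 CPM in unbound 1 to 4. Every IP value was above every unbound value, and IP 4 was the lowest of the IP libraries. Its log2 fold change was 4.32 ± 0.33 (standard error, 3 IP and 4 unbound libraries, as in all that follow).

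Edn1 (chromosome 13, 42301476 to 42307990, plus strand), the precursor of endothelin 1, the main constrictor peptide of the endothelium, had 8.36, 4.44 and 10.4 CPM in IP and 0, 0.55, 1.01 and 0.988 CPM in unbound. Unbound 1 had no count at all for Edn1, against 56, 53 and 32 counts in unbound 4, 3 and 2, and 0 counts there allow up to 0.0376 CPM. The groups did not overlap, and the log2 fold change was 3.61 ± 0.96 (4.57 within index ACAGTG and 3.40 within GTGAAA). The third ligand gene, Edn2, had 0 counts in all 3 IP libraries and 29 in unbound, too few to be tested. Within the summed counts of the ligand genes, not corrected for length, Edn3 made up 76.0% to 92.7% in IP and 62.4% to 93.3% in unbound, so these shares overlap.

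Ece1 (chromosome 4, 137862237 to 137965229, plus strand), the membrane metalloprotease that cuts the endothelin precursors, was present in both fractions. It measured 247, 269 and 254 CPM in IP and 86.9, 31.3, 59.8 and 55.2 CPM in unbound. The IP libraries lay within 1.09-fold of each other and the unbound ones within 2.78-fold, with unbound 1 the highest. The log2 fold change of 2.14 ± 0.31 was lower than that of either ligand.

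The other tested peptidases of the endothelin list fell. Ece2, a relative of Ece1 found in neurons, fell from 34.7 ± 7.11 CPM in unbound to 14.6 ± 1.58 in IP (SD, n = 4 and 3, log2 fold change -1.25 ± 0.25, edgeR adjusted p = 0.00275). For the partner genes that follow, a first value in parentheses is likewise the log2 fold change with its standard error, and SD and n are as here. Mme, which encodes neprilysin, fell by 1.98 on the log2 scale (adjusted p = 0.00064). Ecel1 fell too, so that all 3 tested members of that list were called lower, beside 18.9% of all genes. Kel had no count.

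The endothelin receptors differed from each other in how they were divided between the fractions. Ednra (chromosome 8, 77663031 to 77724464, minus strand), the type A receptor, had 56.7, 64.0 and 49.5 CPM in IP and 0.163, 0.979, 3.28 and 2.31 CPM in unbound. Its groups did not overlap, and its unbound values spanned 20.2-fold, with unbound 1 the lowest. Single vascular markers spread there too, but not in the same direction. Kcnj8 with 0.0376 to 1.55 CPM and Emcn with 0.0125 to 0.953 CPM were lowest in unbound 1. Pecam1 with 0.704 to 2.36 CPM and Des with 0.671 to 3.71 CPM were highest there. These markers were named after their values were seen. The summed endothelial and mural markers spanned 1.23-fold and 1.55-fold over the unbound libraries. The log2 fold change of Ednra was 5.08 ± 0.72. Within index ACAGTG it was 6.75 and within GTGAAA 4.16.

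Ednrb (chromosome 14, 103814625 to 103844402, minus strand), the type B receptor, had 49.2, 57.0 and 65.8 CPM in IP and 23.4, 14.6, 22.0 and 22.0 CPM in unbound. Per kilobase of exon the libraries of the receptors overlapped in IP, at 10.4 ± 1.32 CPM for Ednra and 13.4 ± 1.95 for Ednrb, and not in unbound, at 0.307 ± 0.253 and 4.81 ± 0.935 (SD, n = 3 and 4). The Ednrb groups did not overlap, and its log2 fold change was 1.48 ± 0.24. That value lies within the range of the astrocyte markers, 0.43 to 2.14, and below that of every endothelial marker, 3.60 to 7.70, and every mural marker, 4.01 to 8.48. It also lies within the ranges of the fibroblast markers, -1.10 to 3.09, and the ependymal and choroid plexus markers, -0.35 to 4.14.

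As a share of the summed counts of both receptors, Ednra made up 53.5% in IP 1 (95% Wilson interval 52.4 to 54.6), 52.9% in IP 2 (51.7 to 54.0) and 42.9% in IP 4 (41.6 to 44.2). In unbound 1 to 4 it made up 0.692% (0.405 to 1.18), 6.27% (4.87 to 8.04), 13% (11.3 to 14.9) and 9.51% (8.07 to 11.2). The intervals cover counting error only, since the labels name no molecular identifiers, and the shares are not corrected for length, which is the same in every library. The mean share was 49.8% ± 5.96 in IP and 7.37% ± 5.23 in unbound (SD, n = 3 and 4).

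**Figure D2:**
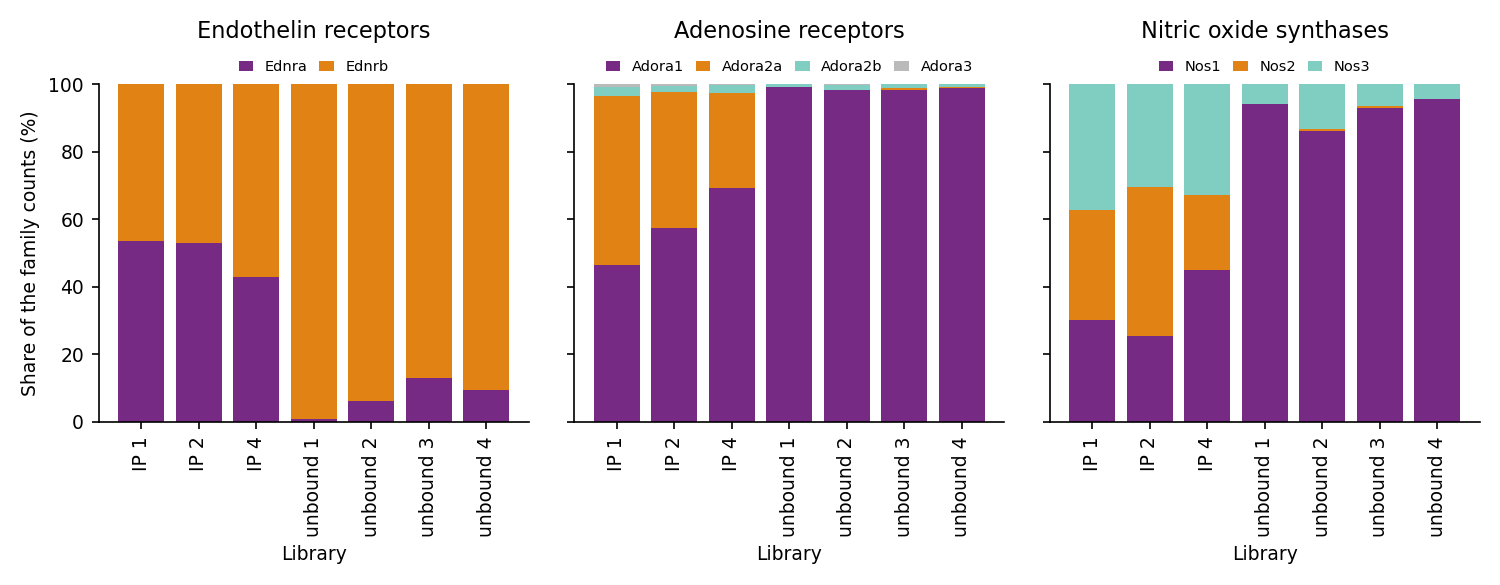
Share of each gene in the summed counts of its family (percent, stacked bars from 0) in each of the 7 libraries, for the endothelin receptors, the adenosine receptors and the nitric oxide synthases. Ednra reaches 42.9% to 53.5% in IP against 0.692% to 13% in unbound, and Adora1 and Nos1 make up most of the unbound bars.

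Agtr1a (chromosome 13, 30336441 to 30382867, plus strand), the type 1 angiotensin receptor, was the exception among the genes. It had 84, 18 and 48 counts in IP, or 1.12, 0.314 and 0.943 CPM, and 31 to 37 counts in each unbound library, or 0.464, 0.636, 0.588 and 0.653 CPM. IP 2 lay below all unbound libraries and IP 1 and IP 4 above them, and the log2 fold change was 0.44 ± 0.74. It was 0.12 without IP 1 and 0.83 without IP 2.

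The other receptors of angiotensin were also low in IP. Agtr1b, Agtr2 and Mas1, the receptor for a shorter angiotensin peptide, averaged 0.229, 0.845 and 0.346 CPM in IP and did not pass the test (adjusted p = 0.867, 0.0754 and 0.683), though without IP 4 Agtr2 and Mas1 did pass as lower (log2 fold change -4.88 and -5.91, adjusted p = 0.00298 and 0.0179). Agtr2 also passed with DESeq2, limma voom, the index as a term and within index ACAGTG (adjusted p = 0.0136, 0.0115, 0.0294 and 0.0281). Agt, the precursor of angiotensin, which astrocytes make in the brain, rose from 21.7 ± 7.45 to 48.9 ± 4.6 CPM (log2 fold change 1.17 ± 0.28, adjusted p = 0.00806, and adjusted p = 0.0762 within index ACAGTG). The angiotensin-cleaving enzyme Enpep, with the smallest p of this list, rose from 1.08 ± 0.16 to 29.5 ± 5.45 CPM (4.76 ± 0.29, adjusted p = 1.51e-06). Of the 11 tested members of this list 5 rose and 1 fell, beside 20.5% and 18.9% of all genes. The gene that fell was the renin receptor Atp6ap2 (-1.47 ± 0.25, adjusted p = 0.00095). Lnpep, an aminopeptidase and the member with the highest mean CPM, had a difference of -0.17 ± 0.33 on the log2 scale (adjusted p = 0.712, and -0.64 with adjusted p = 0.046 without both IP 4 and unbound 2). Without IP 4 the number that fell was 3.

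Adora2a (chromosome 10, 75316877 to 75334784, plus strand), the adenosine receptor that raises cyclic AMP at low adenosine levels, had 70.4, 64.8 and 50.3 CPM in IP and 0.276, 0.241, 1.06 and 0.512 CPM in unbound. The lowest IP value was far above the highest unbound value, which was that of unbound 3. The log2 fold change was 6.90 ± 0.51, and it was 7.49 without unbound 3, a fold change over 1.5 times as large. It was 8.02 within index ACAGTG and 6.02 within GTGAAA.

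None of the remaining adenosine receptors was called higher in IP in the main fit. Adora1, an inhibitory receptor found on neurons, fell from 158 ± 28.2 to 93.8 ± 28.8 CPM (-0.76 ± 0.27, adjusted p = 0.0466), with overlapping groups. It lost its call without any of IP 1, IP 2, unbound 1, unbound 3 or unbound 4 (adjusted p = 0.204, 0.145, 0.0912, 0.0969 and 0.0905) and with RLE scaling or library size only (adjusted p = 0.05 and 0.0894). On the log2 scale Adora2b differed by 1.17 ± 0.44 (adjusted p = 0.0525), and every IP library lay above every unbound one. Adora2b passed as higher with DESeq2, limma voom, library size only and the index as a term (adjusted p = 0.0112, 0.0364, 0.0409 and 0.044). Adora3 differed by 2.65 ± 1.24 (adjusted p = 0.114) with overlapping groups, and passed with limma voom and without unbound 2 (adjusted p = 0.0351 and 0.0324). Adora2a made up 28.2% to 50% of the counts of the 4 receptor genes in IP and 0.150% to 0.629% in unbound. Among the genes that make and clear adenosine, only Entpd1, an ectonucleotidase that breaks down ATP, rose, from 4.21 ± 1.94 to 142 ± 20.8 CPM (5.08 ± 0.43, adjusted p = 9.37e-06). Of the 9 tested members of the list 1 rose, 1 fell and 7 did not pass. Of all genes tested, 20.5% were higher and 18.9% lower.

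Cysltr2 (chromosome 14, 73025603 to 73049114, minus strand), a receptor for cysteinyl leukotrienes that is found on endothelium, had the highest log2 fold change of the 10 genes, 9.27 ± 0.90, which ranked 17 among all genes tested. It had 1555, 1756 and 332 counts in IP, or 20.7, 30.6 and 6.53 CPM. In unbound 1 to 4 it had 0, 0, 5 and 2 counts, of which the last are 0.0949 and 0.0353 CPM. IP 4 was low among the IP libraries, at 0.254 times the mean of IP 1 and IP 2. The summed counts gave a ratio of 703, with an exact 95% counting interval of 341 to 1750. Without unbound 3 the log2 fold change was 10.60. Replicates 1 and 2 together gave at least 1150-fold against a floor of 3 counts over both unbound libraries, and within index GTGAAA the log2 fold change was 6.63.

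Of the 6 tested genes of the leukotriene list, which holds a receptor and enzymes of synthesis and conversion, 5 rose, beside 20.5% of all genes. Cysltr1, the second receptor for these lipids, rose from 0.185 ± 0.224 to 5.78 ± 1.15 CPM (4.99 ± 1.08, adjusted p = 0.00451). Alox5, which starts the pathway, and Ltc4s, which makes the first cysteinyl leukotriene, rose on the log2 scale by 4.83 ± 0.91 and 3.89 ± 0.71 (adjusted p = 0.00211 and 0.00172), the latter with adjusted p = 0.0535 within index ACAGTG. Ggt5, a gamma-glutamyltransferase that converts these lipids outside the cell, rose from 0.267 ± 0.0757 to 19.3 ± 5.35 CPM (6.16 ± 0.39, adjusted p = 1.83e-06). Lta4h, on the branch to leukotriene B, the member with the highest mean CPM, had a log2 difference of 0.21 ± 0.25 (adjusted p = 0.554). The receptors Ltb4r1, Ltb4r2 and Oxgr1 were below the filter.

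Gper1 (chromosome 5, 139423151 to 139427800, plus strand), a receptor that responds to estrogen at the cell surface, had 180, 176 and 122 CPM in IP, or 13476, 10106 and 6216 counts. In unbound 1 to 4 it had 0, 24, 26 and 19 counts, or 0, 0.412, 0.493 and 0.335 CPM. The groups did not overlap. The log2 fold change was 9.05 ± 0.77 and ranked 22 among all genes tested (9.84 within index ACAGTG and 8.22 within GTGAAA). The summed counts gave a ratio of 583 (exact 95% counting interval 461 to 750).

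Neither nuclear receptor for estrogen was called higher in IP. Esr1 had 5.83, 4.91 and 5.05 CPM in IP and 17.3, 2.94, 4.42 and 5.03 CPM in unbound (-0.50 ± 0.56, adjusted p = 0.511), where the sign turned without unbound 1 (0.35). Esr2 fell by 4.55 ± 1.23 on the log2 scale from 0.643 ± 0.38 to 0.0243 ± 0.027 CPM (adjusted p = 0.0136), a call lost without IP 2 (adjusted p = 0.0571) and within either index (adjusted p = 0.0822 and 0.112). Of the summed counts of Gper1, Esr1 and Esr2, Gper1 made up 96.0% to 97.3% in IP and 0% to 9.88% in unbound. Pgr, the progesterone receptor, fell from 52.1 ± 3.95 to 23.8 ± 3.87 CPM (-1.13 ± 0.22, adjusted p = 0.0023). Of the 4 tested members of this list 2 fell and none rose, beside 18.9% and 20.5% of all genes. Without IP 2 only 1 fell.

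Nos3 (chromosome 5, 24364810 to 24384474, plus strand), the endothelial nitric oxide synthase, had 12.2, 10.6 and 12.2 CPM in IP and 1.77, 1.94, 1.75 and 1.5 CPM in unbound. The groups were far apart and narrow, with unbound libraries within 1.29-fold and IP libraries within 1.15-fold of each other. Its log2 fold change of 2.75 ± 0.31 was below that of all 13 endothelial markers. Nos3 shares exon bases with genes on the opposite strand, 294 with Atg9b and 1040 with Gm15587. The annotation and strand setting of the counting are not given. Reads there may thus have counted for Nos3, for these genes or as ambiguous. Edn1 and Ednra share 35 and 91 exon bases with Gm47118 and 4933431K23Rik.

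The other synthases moved in opposite directions. Nos2, the inducible form, rose from 0.0675 ± 0.0707 to 11.4 ± 3.66 CPM (7.43 ± 0.70, adjusted p = 2.04e-05), with 10.6, 15.4 and 8.18 CPM in IP. Nos1, the neuronal form, fell from 24.9 ± 8.95 to 11.8 ± 4.25 CPM (-1.08 ± 0.37, adjusted p = 0.0387), with overlapping groups. The call for Nos1 was lost without IP 1, IP 2, unbound 1, unbound 3 or unbound 4 (adjusted p = 0.136, 0.154, 0.0714, 0.0717 and 0.101) and with library size only (adjusted p = 0.0511). As shares of the summed synthase counts, not corrected for length, the means in IP were 33.5% ± 10.3 for Nos1, 32.9% ± 11.0 for Nos2 and 33.6% ± 3.49 for Nos3. In unbound Nos1 had 92.2% ± 4.13 (SD, n = 3 and 4).

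The subunits that receive nitric oxide moved unequally. In soluble guanylate cyclase, Gucy1a3 (now Gucy1a1) and Gucy1b3 (now Gucy1b1) rose from 72.8 ± 21.3 to 257 ± 27.2 CPM (1.82 ± 0.27, adjusted p = 0.000474) and from 47.6 ± 8.15 to 157 ± 27.9 CPM (1.73 ± 0.23, adjusted p = 0.00022). The alternative subunit Gucy1a2 had a log2 difference of -0.25 ± 0.27 (adjusted p = 0.487). Cav1, the caveolar protein that binds and restrains the endothelial synthase, rose from 4.55 ± 1.35 to 206 ± 32.4 CPM (5.49 ± 0.31, adjusted p = 1.33e-06). Ddah1, which clears an inhibitor of the synthases and had the highest mean CPM of the list, differed by 0.26 ± 0.22 on that scale (adjusted p = 0.38). Of the 15 listed genes 11 rose and 1, Nos1, fell, beside 20.5% and 18.9% of all genes.

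Over all 7 lists of partner genes, 88 of the 97 with a row were tested. In IP 30 were higher (34.1%) and 17 lower (19.3%), beside 20.5% and 18.9% of all genes, and their median log2 fold change was 0.11. The number that fell was 11 without IP 1 and 9 without IP 2. Among 40 other tested genes for peptides, amines and nucleotides that act on vessels 8 rose and 9 fell. Calcrl, the receptor subunit for adrenomedullin and the calcitonin gene-related peptide, rose by 4.07 ± 0.40 on the log2 scale, as in the rest of this list (adjusted p = 2.8e-05), and its partner Ramp2 by 4.58 ± 0.53 (adjusted p = 8.83e-05). The apelin receptor Aplnr rose by 7.10 ± 0.97 (adjusted p = 0.00027), while the ligand Apln, with the highest mean CPM of this list, had 0.52 ± 0.24 (adjusted p = 0.104). P2ry6, a nucleotide receptor, rose by 5.61 ± 0.86 (adjusted p = 0.000556). The nucleotide receptors P2ry1, P2rx1 and P2rx4 rose by 1.0, 3.18 and 0.83 (adjusted p = 0.0148, 0.0453 and 0.0366) and lost these calls without IP 1 (adjusted p = 0.0656, 0.0592 and 0.0678) or IP 2 (adjusted p = 0.0594, 0.0997 and 0.103). P2rx1 also lost it without IP 4, unbound 2, unbound 3 or unbound 4 (adjusted p = 0.147, 0.053, 0.0523 and 0.103), and P2rx4 without IP 4, unbound 1, unbound 3 or unbound 4 (adjusted p = 0.1, 0.0542, 0.0775 and 0.0598). Among the 9 that fell were Calca, the gene of the calcitonin gene-related peptide (-3.13, adjusted p = 0.000377), and Ramp3, a further partner of Calcrl (-2.48, adjusted p = 0.00473), both named after their values were seen. The count that rose was 5 without IP 1 or without IP 2, and the count that fell was 5 and 4.

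**Figure D3:**
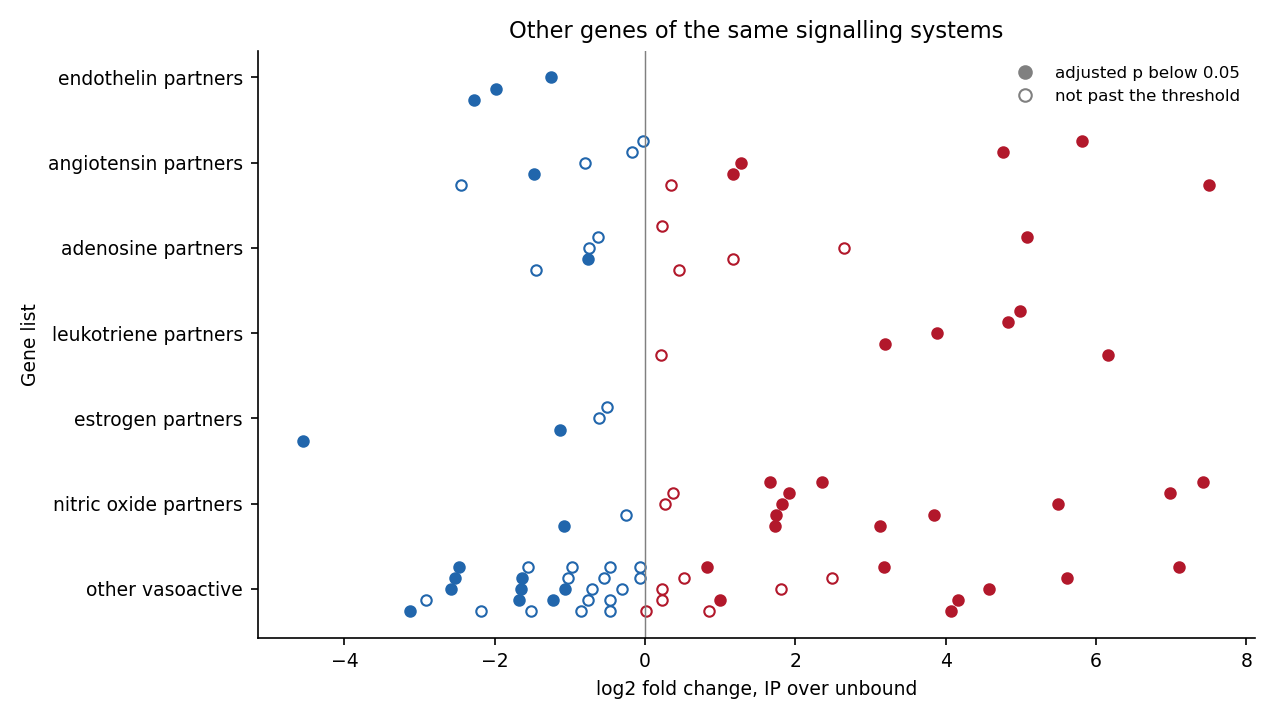
Log2 fold change, IP over unbound, of the 88 tested partner genes by list, red for higher and blue for lower, filled where the adjusted p was below 0.05 and open otherwise. The leukotriene and nitric oxide lists lie mostly to the right of 0, with 5 of 6 and 11 of 15 genes higher, and the endothelin list, 3 of 3, to the left. Of all genes tested, 20.5% were higher and 18.9% lower.

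Beside the markers of cell types, the 10 genes fell into ranges, as the plot of fold changes beside marker lists shows. The log2 fold changes of Cysltr2 and Gper1 exceeded those of all 13 endothelial and all 13 mural markers, whose highest values were 7.70 and 8.48. Adora2a lay near their medians of 6.87 and 6.46, and Ednra and Edn3 lay within both ranges. Edn1 was at the lower edge of the endothelial range, and Nos3, Ece1, Ednrb and Agtr1a were below it. The macrophage and microglia range, 3.17 to 8.5, held Adora2a, Ednra, Edn3 and Edn1 as well. Ece1, Ednrb and Agtr1a were at or within the astrocyte range. The fibroblast range, -1.10 to 3.09, and the ependymal and choroid plexus range, -0.35 to 4.14, held these genes and Nos3 as well. Edn1 also lay within the ependymal and choroid plexus range.

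**Figure D4:**
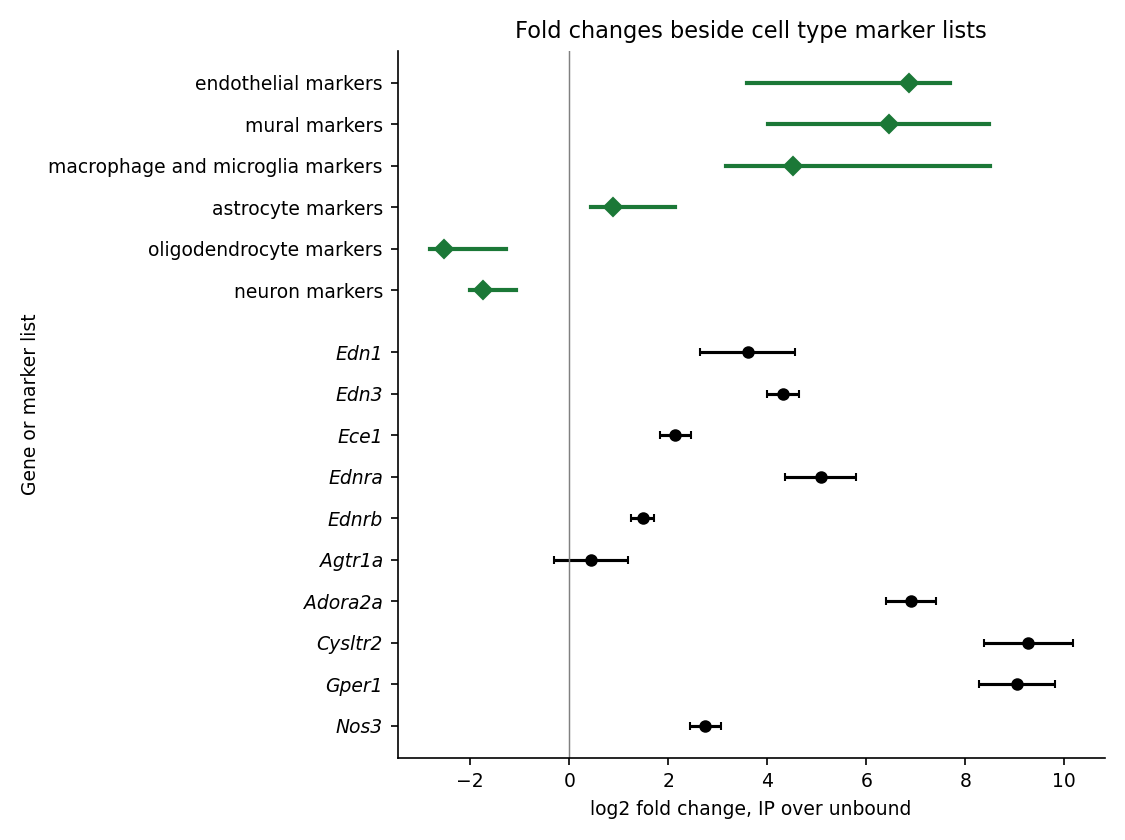
Log2 fold change, IP over unbound, of each of the 10 genes with its standard error (black), and the median (diamond) and full range (line) of 6 lists of cell type markers (green). Cysltr2 at 9.27 and Gper1 at 9.05 lie to the right of every marker line, of which the macrophage and microglia line reaches farthest, to 8.5, and Agtr1a at 0.44 lies near 0.

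The genes whose profile over the 7 libraries came nearest were found by the Euclidean distance of log2 CPM, each profile centred on its mean, among 14136 candidates (14137 for Agtr1a). The points share libraries and depth, so the likeness is mainly that of the division between fractions. Nearest to Gper1 were Kcnj8, Higd1b and Ndufa4l2 (distances 1.22, 1.24 and 1.37), all in the list of mural markers, with log2 fold changes of 8.13, 8.48 and 8.21. Nearest to Ednra were Emp3, Tgfb1 and Anpep (1.02, 1.03 and 1.06), and nearest to Cysltr2 were Tcf23, Ripply3 and Gimap8 (1.15, 1.59 and 1.6). Adora2a was nearest to Map3k7cl, Gimap8 and Gipc3 (0.448, 0.649 and 0.739). Edn1 had Frem2, Mcm3 and Tead3 (1.03, 1.06 and 1.31), and Edn3 had Gatsl3, Nr1h3 and Unc45b (0.443, 0.471 and 0.532). The closest profile to any of the 10 genes was that of Mfsd4 to Ednrb (0.135), followed by Foxj2 and Mapk1ip1l (0.286 and 0.352). Ece1 was nearest to Tgfbr3, Mcur1 and Inppl1 (0.302, 0.334 and 0.411), Nos3 to Snhg18, Ctdsp1 and Gnai2 (0.392, 0.405 and 0.408), and Agtr1a to Ccdc134, Ggcx and Zfp948 (0.518, 0.674 and 0.772).

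The IP libraries did not differ in the same way for each gene. IP 4 stood at 0.254 times the mean of IP 1 and IP 2 for Cysltr2, 0.523 for Edn3, 0.687 for Gper1, 0.744 for Adora2a and 0.820 for Ednra. The same ratio was 0.722 for the summed mural markers and 0.798 for the endothelial ones. It was above 1 for Ednrb (1.24), Nos3 (1.06), Agtr1a (1.32) and Edn1 (1.62), and Ece1 had 0.985. The summed markers of macrophages and microglia, astrocytes, oligodendrocytes and neurons had 1.01, 1.26, 1.74 and 2.15. Single vascular markers lay on both sides of 1, such as Acta2 (1.72), Vwf (1.57), Ly6c1 (0.608) and Kcnj8 (0.556), named after their values were seen. The part of the cell mixture in these differences was not tested, and IP 4 is also the only IP library with index GTGAAA, so index and replicate cannot be told apart within IP.

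**Figure D5:**
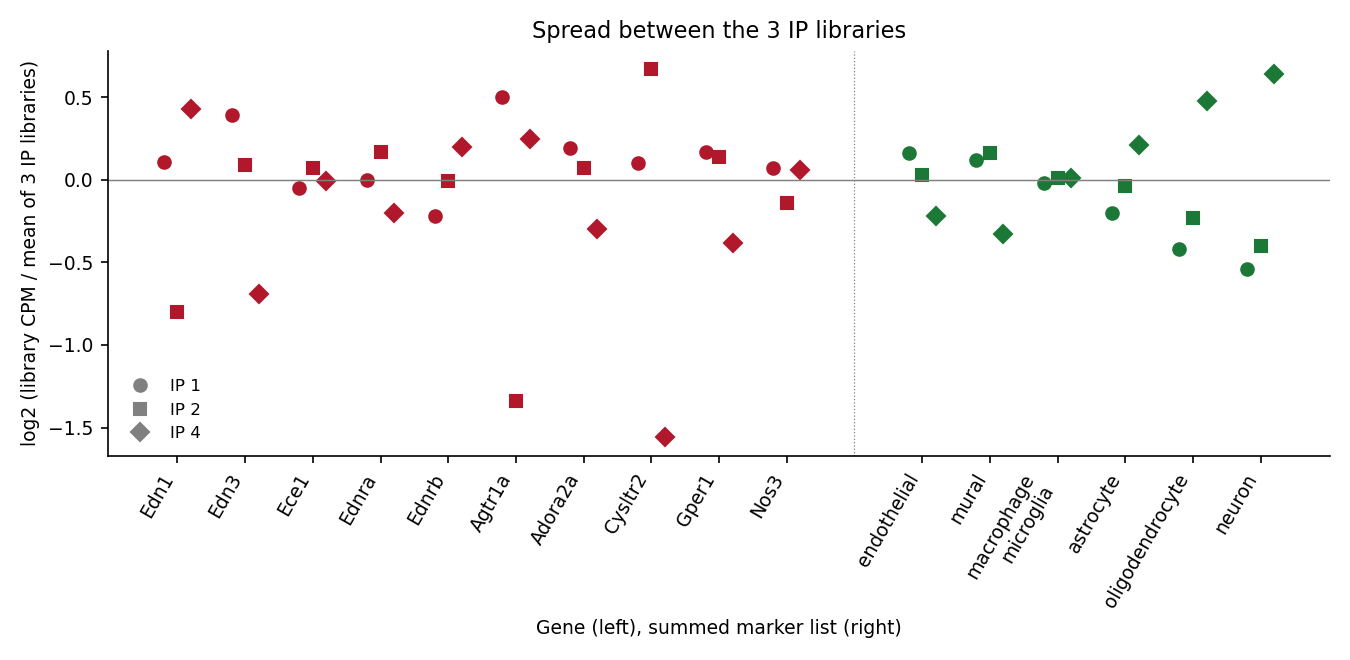
Level in each IP library relative to the mean of the 3 IP libraries (log2 ratio) for the 10 genes (red, left) and for 6 summed marker lists (green, right). IP 4 (diamonds) lies lowest of the IP libraries for Cysltr2 at -1.56 and Edn3 at -0.69, and highest for the neuron markers at 0.64.

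Levels between genes were compared per kilobase of merged exon. In IP the order was Gper1 (62.8 ± 12.8 CPM per kilobase, SD, n = 3), Ece1 (48.4 ± 2.12), Adora2a (20.2 ± 3.39), Ednrb (13.4 ± 1.95), Edn3 (12.9 ± 4.50), Ednra (10.4 ± 1.32), Cysltr2 (6.71 ± 4.21), Edn1 (3.62 ± 1.42), Nos3 (2.82 ± 0.224) and Agtr1a (0.284 ± 0.152). The libraries of neighbours in this order overlapped except between Ece1 and Adora2a, between Adora2a and Ednrb, and between Nos3 and Agtr1a. In unbound Ece1 (11.0 ± 4.30 CPM per kilobase, n = 4) and Ednrb (4.81 ± 0.935) led, and Gper1 (0.122 ± 0.0853) and Cysltr2 (0.0113 ± 0.0156) came last. With the coding length in place of the merged exons Edn3 (82.4 CPM per kilobase) moved ahead of Adora2a (50.3) in IP, and Ednra (44.3) ahead of Ednrb (43.2), while Gper1 (142) and Ece1 (111) stayed first and Agtr1a (0.736) last.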

How the data were processed

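The authors deposited raw read counts per gene symbol, 1 file for each library, as whole numbers. The submitters' processing notes name STAR 2.0.0e, HTSeq and the build mm10. Which annotation and strand setting were used for counting is not given. Library sizes and tests leave out the 6 rows that name no gene. Of the sum of each file, reads outside genes made up 11.3% to 18.6%, ambiguous reads 1.43% to 1.63% in IP and 7.26% to 11.5% in unbound, and reads aligned to several places 17.6% to 39.6%.

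IP was tested against unbound, 2-sided, with the robust quasi-likelihood test of edgeR 4.0.16 (R 4.3.3) after filterByExpr and TMM scaling, and p-values were adjusted by Benjamini-Hochberg over 17654 genes at a threshold of 0.05. Neither CPM nor fold changes come from the authors. Standard errors were worked out from each log2 fold change and the F statistic of its test, so they are approximate. Gene coordinates and lengths come from GENCODE M21 on GRCm38, the build also called mm10. Other scalings (RLE, none) and filters (none, 5 CPM in 3 libraries) were tried, as were DESeq2 1.42.0 and limma 3.58.1 voom. Further fits used the replicate block, the index as a term or 1 index alone, or left out the 10 most abundant genes or each library. A fit without both IP 4 and unbound 2 was chosen after seeing the data. No pair of libraries in a group agreed within sampling noise (chi-square per degree of freedom 77.7 to 1210).

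The genes, lists and tests were chosen with earlier results of these data known. Partner genes are named where they are a ligand, receptor or synthase, have their list's smallest p or highest mean CPM, or were called against its majority. For likeness, the 3 nearest genes of mean CPM of at least 1 are named, apart from predicted (Gm) and Rik symbols. Some partner genes that enter the counts are not reported here by name.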

Additional observations from a re-analysis of the deposited data

Results flagged for a closer look

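Chance alone flags about 1 in 20 groups of 4, and 67 such groups of unbound libraries were examined here, of which 7 had a library far from the other 3. Among the 10 vasoactive genes, Edn3 was low in unbound 4, at 1.73 CPM against 2.83 to 3.04 in the others. Ednrb was low in unbound 2, at 14.6 CPM against 22.0 to 23.4.

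Among the partner genes, Agtr1b stood out in unbound 3, at 0.626 CPM against 0 to 0.0687. Esr1 was high in unbound 1, at 17.3 CPM against 2.94 to 5.03, and Lta4h in the same library, at 17.9 CPM against 14.1 to 14.6. The red cell gene Hbb-bs had 57.2 CPM in unbound 2 against 8.03 to 12.2, and the summed red cell markers had 64.2 CPM there against 12.9 to 17.6.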

How the results depend on the processing

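The log2 fold changes of the 10 genes kept their sign under each alternative that gave a value. The filter of 5 CPM in 3 libraries removed Edn1 and Agtr1a. Edn1 ranged from 3.19 without unbound 1 to 5.19 with limma voom, and Gper1 from 8.22 within index GTGAAA to 10.30 with limma voom. Over all genes, 3622 were higher and 3328 lower. Leaving out 1 library gave 2796 (IP 2) to 4050 (unbound 2) higher and 1751 (IP 2) to 3632 lower, with 3957 lower without IP 4 and unbound 2, and 26 to 30 partner genes higher and 9 to 22 lower. Within index ACAGTG (2 IP and 2 unbound libraries) 2190 genes were higher and 1650 lower, and 9 partner genes were lower. With the replicate block (a paired fit over replicates 1, 2 and 4) 11 partner genes were lower, and Ednra had 6.12, Cysltr2 10.43 and Adora1 an adjusted p of 0.103. Over all genes this paired fit gave 3153 higher and 2530 lower. Deviations of same-numbered libraries correlated at -0.03, 0.04 and 0.16, and 2 of 3 IP libraries were most like the unbound library of their own number. These values do not settle whether the numbers pair the samples. The main fit has no block because no label says what the shared number marks. With no call in the fits where the sign differed, signs turned for Agtr1b (-2.33 within index GTGAAA, -0.60 without IP 1, -0.07 without unbound 4 and up to 0.80 without IP 4), Mas1 (0.69 within GTGAAA), Esr1 (0.11 within GTGAAA, 0.35 without unbound 1 and down to -0.76 without unbound 2), Lnpep (0.07 without unbound 4 and down to -0.64 without IP 4 and unbound 2, where it was called lower, adjusted p = 0.046) and Th, a dopamine neuron marker (0.00 without unbound 4 and up to 0.23 without unbound 1). The causes were not tested. Within GTGAAA the lone IP library is assumed to vary like the unbound ones. The 7 unbound counts of Cysltr2 limit how well its fold change is known.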

Other observations

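A further pattern, noticed after the values were seen, concerns genes at 0 in a single library. Edn1 and Gper1 had no count in unbound 1, the library with the most counts in genes, although each of the other unbound libraries held at least 15 counts of them. In that library 115 genes met this description, against 18 in unbound 2, 2 in unbound 3 and 2 in unbound 4. In the IP group the count was 12 in IP 1, 34 in IP 2 and 49 in IP 4. There the condition covers fewer other libraries, so the counts of the groups are not comparable. The cause was not tested.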
